A study of Drosophila melanogaster with 2 samples.

Results

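The mir-275 hairpin of Drosophila melanogaster gave 2 listed microRNA products, MI0000356_1 and MI0000356_2, and both took a smaller share of the microRNA reads in cdk9-G57S mutant larvae than in wild-type larvae. They were selected as every row of the deposited table whose identifier begins with MI0000356, the accession of dme-mir-275 in the microRNA registry, which is 2 of the 101 listed products and 1 of the 83 listed hairpins. The hairpin was selected on these same read counts, because both of its products had a lower share in the mutant, so the values below describe that difference and do not test it. Non-coding RNA was profiled by sequencing in whole larvae aged 48 h that had been grown at 25 °C. The mutant larvae were homozygous for cdk9-G57S, an altered allele of the gene for Cdk9, and the other larvae were labelled wild type, with no further strain detail. Each genotype had 1 library, with 2204104 reads over the listed products for cdk9-G57S and 2135660 for wild type. Without a second library of either genotype the spread between samples is unknown, and p-values were not computed. Every interval below is a 95% interval for counting error, and copies made by PCR are not independent molecules. In RNA from whole larvae, fewer cells of a type that makes a microRNA cannot be told apart from less of it per cell.

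A microRNA hairpin is cut from its primary transcript by the Microprocessor, the nuclear complex of Drosha and Pasha, and Dicer then trims it to a duplex. One strand of the duplex is usually kept in an Argonaute protein and guides it to messenger RNAs through the seed near its 5′ end, while the other strand is mostly degraded. Cdk9 is the kinase of P-TEFb, which phosphorylates RNA polymerase II and releases it into elongation, and the series title links Microprocessor recruitment to the elongating polymerase. In the mosquito Aedes aegypti, miR-275 is needed for blood digestion and egg development. In the fly, mir-275 is encoded beside mir-305, a microRNA studied for its part in adult intestinal stem cells.

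In the Ensembl annotation of the BDGP6 assembly, the mir-275 hairpin lies on the plus strand of chromosome arm 2L. It is 98 bases long and carries 2 annotated mature products of 23 bases each, with 16 bases between them. The whole hairpin falls inside exon 2 of lncRNA:CR43857, a long non-coding RNA gene on the same strand. This setting is shared by a minority of fly microRNAs, since 47 of the 262 annotated hairpins (17.9%) lie inside an exon of a non-coding RNA on their own strand. The next hairpin downstream, 79 bases away and not contained in that exon, is mir-305, the only other hairpin within 10000 bases on that strand. Of the 262 hairpins, 79 (30.2%) have such a close neighbour. The files list reads by accession only, and no accession could be paired with mir-305, so its reads are not given here. It was likewise not settled which of the annotated mature products MI0000356_1 and MI0000356_2 are, because the table does not say whether its suffix names an arm.

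MI0000356_2 was the more abundant product of the hairpin in both libraries. It had 2993 reads in cdk9-G57S larvae, against 18435 in wild-type larvae. Its share of the listed reads was 0.136% in cdk9-G57S (exact Clopper-Pearson interval 0.131 to 0.141) and 0.863% in wild type (0.851 to 0.876). The intervals lie far apart, and the share was 6.36-fold lower in the mutant (exact conditional-binomial interval 6.12 to 6.61), a log2 ratio of -2.67. At its wild-type share it would have had 19026 reads in the mutant library. By abundance it stood at rank 67 of 101 products in cdk9-G57S and at rank 21 in wild type. Its place in the mutant order is loose, because the products on either side of it, at 3016 and 2992 reads, differed from it by less than counting error. In wild type both neighbours in the order, at 19080 and 15666 reads, differed from it by more than counting error.

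MI0000356_1, the rarer product, had 429 reads in cdk9-G57S larvae and 1862 in wild-type larvae. These reads made up 0.0195% of the cdk9-G57S library (0.0177 to 0.0214) and 0.0872% of the wild-type library (0.0833 to 0.0912). The share was 4.48-fold lower in the mutant (4.03 to 4.99), a log2 ratio of -2.16, so the rarer product was lower by less than its partner. Its rank was 97 in cdk9-G57S and 72 in wild type. The products just below it, at 407 reads in cdk9-G57S and 1811 in wild type, differed from it by less than counting error. Those just above it, at 692 and 1991 reads in these libraries, differed by more. The wild-type share would have given 1922 reads in the mutant library. The lowest read number summed over both libraries for any listed product was 1023, and MI0000356_1 had 2291, so it sits nearer the low end of the table than MI0000356_2 with 21428.

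**Figure D1:**
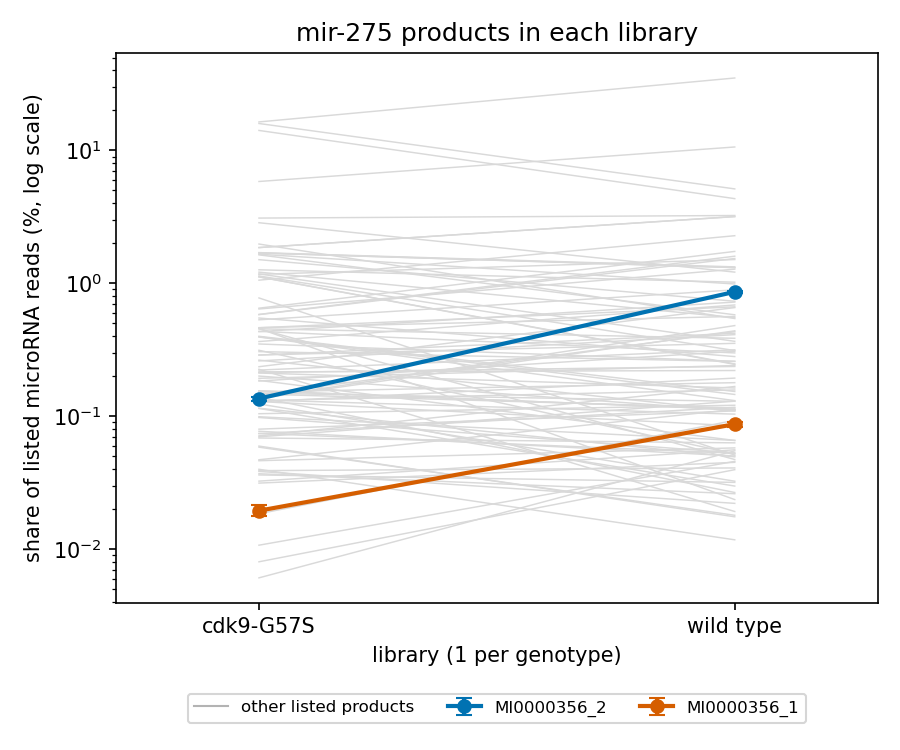
Share of listed microRNA reads (percent, log scale) in the cdk9-G57S and wild-type libraries, 1 library per genotype, with the mir-275 products in colour, their Clopper-Pearson 95% intervals as bars, and each other listed product as a grey line. MI0000356_2 is at 0.136% in cdk9-G57S and 0.863% in wild type, and MI0000356_1 at 0.0195% and 0.0872%.

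In the authors' deposited table, a second pair of columns holds the same reads divided by 1 size factor per library. On that scale MI0000356_2 had 2713 in cdk9-G57S and 20332 in wild type, a 7.49-fold lower value in the authors' deposited table. MI0000356_1 had 389 and 2054 for the same libraries in the authors' deposited table, which is 5.28-fold lower. Both differences are larger there than on the scale of library totals, because the size factors lower every log2 ratio by the same amount, 0.237.

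Taken as a whole, the hairpin had 3422 reads in cdk9-G57S larvae and 20297 in wild-type larvae. This was 0.155% of the cdk9-G57S reads (0.150 to 0.161) and 0.950% of the wild-type reads (0.937 to 0.963), a 6.12-fold lower share in the mutant (5.90 to 6.35). Had mir-275 kept its wild-type share, 20947 reads of the mutant library would have come from it. Among the 83 hairpins it stood at rank 55 in cdk9-G57S and rank 20 in wild type. It had the second lowest log2 ratio of all hairpins, at -2.61, against a median of 0.36 over hairpins. The single hairpin below it had 1 listed product with only 134 reads in cdk9-G57S and 1173 in wild type, a 9.03-fold lower share. The next one above it was 2.97-fold lower, with 3214 reads in cdk9-G57S and 9245 in wild type. The 10 hairpins with an at least 2-fold lower summed share make up 12.0% of the 83.

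Across all listed products, 17 of 101 had an at least 2-fold lower share in cdk9-G57S with a counting interval below 1, which is 16.8%, and 28 (27.7%) had an at least 2-fold higher one. Both mir-275 products are among the 17 because the hairpin was chosen that way. The log2 ratios ran from -3.18 to 4.28 with a median of 0.24, and from the low end MI0000356_2 held place 2 and MI0000356_1 place 5. Just inside the 2-fold limit on the lower side was the most abundant product of both libraries, with 361293 reads in cdk9-G57S and 749599 in wild type (2.14-fold lower). Just outside it was a product with 14140 reads in cdk9-G57S and 27307 in wild type (1.99-fold lower).

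**Figure D2:**
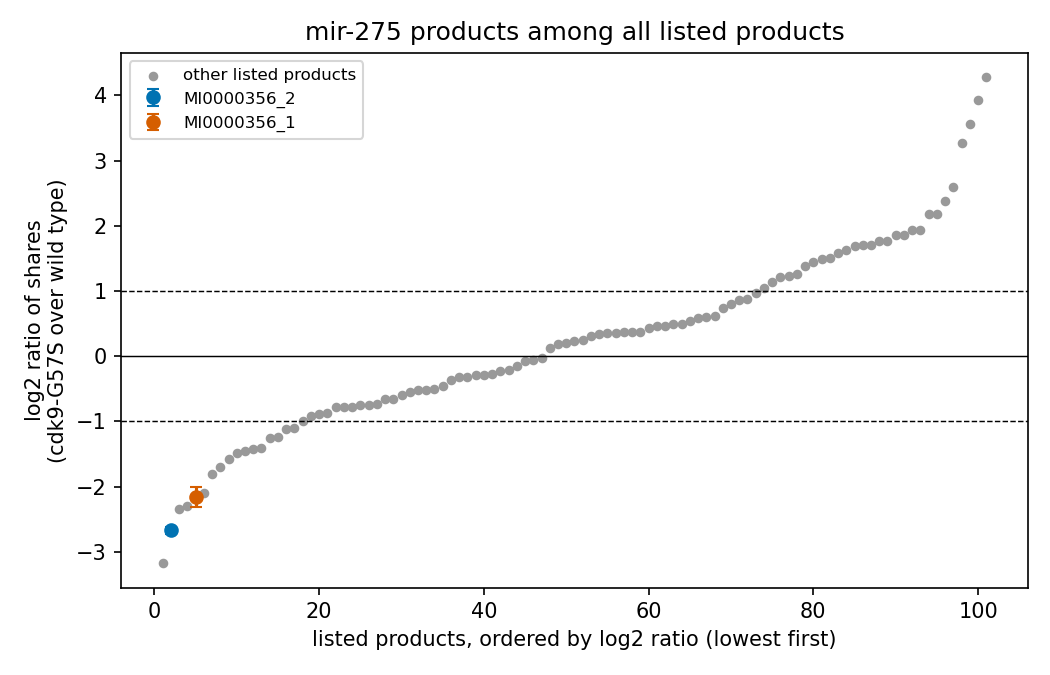
Log2 ratio, cdk9-G57S over wild type, of the read shares of the 101 listed products in rising order, with dashed lines at the 2-fold limits and bars for the 95% counting intervals of the mir-275 products. From the low end, MI0000356_2 holds place 2 at -2.67 and MI0000356_1 place 5 at -2.16.

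A share at least 4-fold lower in the mutant was found for 6 of the 101 products (5.94%), and 2 of these are the mir-275 products. The other 4 were rare in both libraries, with 134 to 407 reads in cdk9-G57S and 846 to 1991 in wild type. MI0000356_1 was close to that range, at 429 reads in cdk9-G57S and 1862 in wild type. MI0000356_2 was far above it: its 18435 wild-type reads place it among the 31 products that reached 10000 reads in wild type. Within these 31 the product with the next lowest ratio had 3016 reads in cdk9-G57S and 10272 in wild type, a 3.51-fold lower share. The wild-type level of 10000 reads was chosen after the values were seen.

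The products most like those of mir-275 were taken as the 3 of other hairpins with the nearest log2 ratio over these 2 libraries. MI0000136_1 and MI0000374_1 were among the 3 nearest to both mir-275 products. MI0000136_1 had 407 reads in cdk9-G57S and 1991 in wild type, a 5.05-fold lower share (4.54 to 5.63). MI0000374_1 had 177 reads in cdk9-G57S and 846 in wild type, a 4.93-fold lower share (4.19 to 5.83). The nearest of all to MI0000356_1 was a product with 236 reads in cdk9-G57S and 977 in wild type (4.27-fold lower, 3.70 to 4.95). For MI0000356_2 the third nearest was the product with 134 and 1173 reads in these libraries, already given. The intervals of MI0000136_1, MI0000374_1, MI0000356_1 and the product with 236 and 977 reads overlap, so counting error does not separate these products by ratio.

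None of the listed second products of these hairpins was at least 2-fold lower in the mutant. These hairpins were picked by the ratio of a single product, whereas mir-275 was chosen because both of its products were lower. The contrast in the second product therefore follows from the selection and tests nothing. MI0000136_2, from the hairpin of MI0000136_1, had 351685 reads in cdk9-G57S and 109726 in wild type, which made its mutant share 3.11-fold higher. The partner of the product with 236 and 977 reads was MI0005847_1, with 4973 reads in cdk9-G57S and 410 in wild type, an 11.8-fold higher share. The partner of MI0000374_1 was lower, but by 1.51-fold, with 2835 reads in cdk9-G57S and 4135 in wild type. The hairpin of the product with 134 and 1173 reads had no second product in the table.

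MI0000136_1 was also the listed product whose reads came closest to those of MI0000356_1, within 6.48% in both libraries. In cdk9-G57S the 2 products differed by less than counting error, and in wild type, at 1991 for MI0000136_1 and 1862 for MI0000356_1, by slightly more. Whether reads that match more than 1 hairpin bear on MI0000356_1 was not tested. For MI0000356_2 no product of another hairpin came within 10% in both libraries, and the closest differed by 42.4% in at least 1 of them.

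Of the 18 hairpins with 2 listed products, mir-275 was the 1 (5.56%) in which both products had an at least 2-fold lower share in cdk9-G57S, and in 0 were both at least 2-fold higher. Because mir-275 was chosen for having both products lower, its place in this count and in the comparison below restates that choice. In 9 hairpins the products lay on opposite sides of a ratio of 1, in 5 both were below 1 and in 4 both were above. In the 4 hairpins besides mir-275 with both products below 1, the product that differed less was 1.16-fold to 1.82-fold lower in the mutant, compared with 4.48-fold for MI0000356_1. The count of hairpins with both products at least 2-fold lower depends on the scaling. The deposited size factors (recomputed as DESeq2's median of ratios) and edgeR's TMM factors each gave 2 such hairpins, and leaving the most abundant product out of the totals gave 3.

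**Figure D3:**
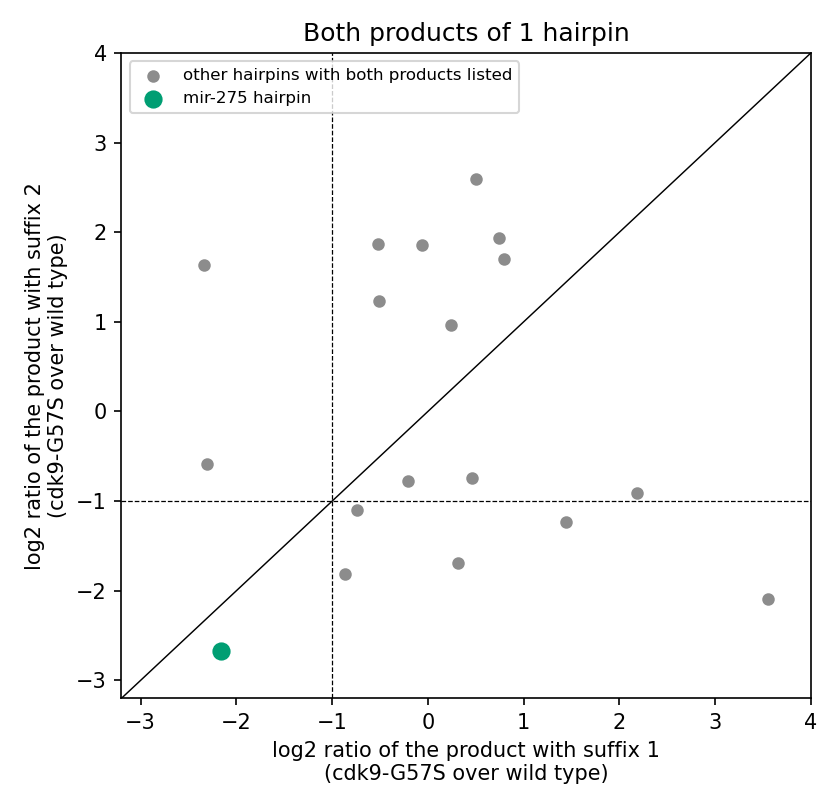
Log2 ratios (cdk9-G57S over wild type) of the products with suffix 1 and suffix 2 in each of the 18 hairpins with 2 listed products; the solid line marks equal ratios and the dashed lines the 2-fold limit on the lower side. The mir-275 hairpin, at -2.16 and -2.67, is the 1 hairpin in the lower left corner past both dashed lines, and it was chosen because both of its products were lower.

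The balance between the products is free of library scaling, since each total cancels. MI0000356_2 outnumbered MI0000356_1 by 6.98 to 1 in cdk9-G57S and by 9.90 to 1 in wild type. MI0000356_1 thus made up 12.5% of the hairpin's reads in cdk9-G57S (Clopper-Pearson interval 11.4 to 13.7) and 9.17% in wild type (8.78 to 9.58). The ratio of MI0000356_1 to MI0000356_2 was 1.42-fold higher in the mutant (interval from the 4 counts 1.27 to 1.59), a log2 change of 0.50. The interval excludes a ratio of 1, a statement on these libraries alone.

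This was a small shift beside that of most other hairpins. The shift is the difference between the log2 ratios of the products, on which mir-275 was chosen. A choice for both products lower leaves out hairpins with products on opposite sides of a ratio of 1, and so favours a small shift. The place of mir-275 among these hairpins is therefore a description and tests nothing. Over the 18 hairpins the size of the log2 change of the product ratio ran from 0.36 to 5.65 with a median of 1.73, and 1 hairpin had a smaller one than mir-275. Some of these hairpins hold a product with nearly the same reads as a product of another hairpin. Examples are products with 24648 and 40964 reads in cdk9-G57S, beside others with 24679 and 40961. The hairpins of the former had log2 changes of 3.10 and 0.56. Whether shared reads bear on these changes was not tested, and the median was not recomputed without such hairpins. The more abundant product was the same in both libraries for mir-275, as in 14 of the 18 hairpins, while it switched in the other 4. The rarer product of a hairpin held a median of 6.84% of the hairpin's reads in cdk9-G57S (range 0.116 to 45.8) and 15.7% in wild type (0.507 to 46.6). For mir-275 the value of 12.5% in cdk9-G57S lies above that median and the 9.17% in wild type below it.

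**Figure D4:**
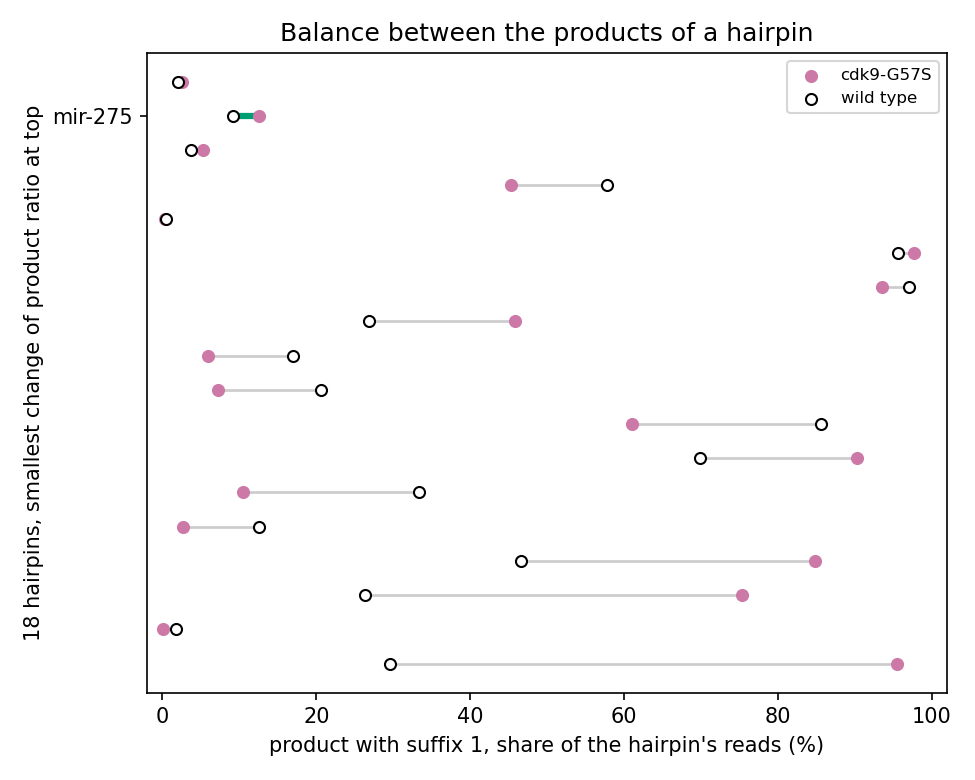
Share of a hairpin's reads held by its product with suffix 1 (percent) in cdk9-G57S (filled) and wild type (open) for the 18 hairpins with 2 listed products, ordered by the size of the log2 change of the product ratio with the smallest at the top. The mir-275 hairpin is second from the top, at 12.5% in cdk9-G57S and 9.17% in wild type, and it was chosen because both of its products were lower, which favours a small change.

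In terms of the whole microRNA pool the difference was modest, because mir-275 held under 1% of the reads in both libraries. Its share was 0.795 percentage points lower in cdk9-G57S, of which MI0000356_2 accounted for 0.727 and MI0000356_1 for 0.0677. Summed over all products with a smaller share in the mutant, the difference was 36.3 points, so mir-275 contributed 2.19% of it. Much of that sum came from the most abundant product, with a difference of -18.7 points (cdk9-G57S minus wild type). By points lost MI0000356_2 ranked 9 and MI0000356_1 ranked 28 among the 101 products.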

How the data were processed

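Total RNA from whole larvae was extracted with Trizol and sequenced by Illumina, per the labels' protocols. The submitters' processing notes name Bowtie, without a version, and dm3 as the build. Trimming, annotation release and the handling of multiply matching reads are not stated there or in the labels. For each genotype the deposited table has 1 column of raw counts, whole numbers of reads for each product, followed by footer lines, which were left out; the footer totals equal the sums over the products. A second pair of columns holds a signal that the authors made by dividing the counts by 1 size factor per library, with DESeq2 per the file headers (1.10 for cdk9-G57S and 0.907 for wild type).

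The wild-type and mutant counts were divided by their library totals. Ratios of shares carry exact conditional-binomial intervals, shares exact Clopper-Pearson intervals, and changes of the product ratio normal intervals from the 4 counts. A product was called at 2-fold or more with an interval that excluded 1 and at least 20 reads summed. The calling rule was run on simulated Poisson counts. These hold counting error only, so the run cannot speak to variation between libraries or to PCR copies. Alternatives were other scalings, minimums, fold limits and a pseudocount. Named products were those of mir-275, the 3 nearest in log2 ratio to each, their partners and those beside the 2-fold limit; 0 of the 83 hairpin accessions matched a name in the reference tables, so few identifiers are printed. The members, lists and rules were chosen with earlier results of these data known. Positions come from the BDGP6 annotation, not dm3, so no coordinates are given, and no sequence is printed. Intervals were computed with scipy 1.17.1 in Python 3.11.15, scaling factors with DESeq2 1.42.0 and edgeR 4.0.16 in R 4.3.3, and figures with matplotlib 3.10.9.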

Additional observations from a re-analysis of the deposited data

How the results depend on the processing

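Both mir-275 products were more than 4-fold lower in cdk9-G57S under each of the 3 other scalings too. Each of these scalings lowers all log2 ratios by the same amount, so this outcome was fixed in advance and says nothing about stability. The log2 ratio of MI0000356_1, MI0000356_2 and the summed hairpin was -2.40, -2.91 and -2.85 with DESeq2's median-of-ratios factors, -2.33, -2.84 and -2.78 with TMM, and -2.53, -3.03 and -2.98 when the totals excluded the most abundant product. These settings gave 24, 21 and 29 products at least 2-fold lower, against 17 on library totals, and 2, 2 and 3 hairpins with both products at least 2-fold lower, against 1. A limit of 1.5-fold gave 30 products and a limit of 4-fold gave 6, as the limit itself sets. The other minimums (none, and 100 reads summed) could remove no product, since the lowest had 1023 reads summed, and so say nothing about stability. With a pseudocount of 5 there were again 17 products, and the log2 change of the product ratio was 0.52. Keeping 1 product per set with near-identical reads (within 2% in both libraries), like the count of hairpins under each scaling, was added after the data were seen and gave log2 ratios of -2.16 and -2.66. No mir-275 product was in such a set, so for mir-275 this only changed the library totals. It raised all log2 ratios by the same amount, 0.0054, and likewise says nothing about stability. No paired analysis was possible because there was a single library of each genotype, which also means that none could be left out. At 429 reads, MI0000356_1 is the less precisely counted product, and variation between larvae or preparations is in none of the intervals.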
